A study of Mus musculus with 8 samples.

Results

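Fgf21, Gdf15, Angptl4 and Angptl8 encode secreted proteins that the liver releases when its fuel supply changes, and the chromatin around these 4 hepatokine genes is described here in the fasted mouse liver. Of the 49587 consensus regions of open chromatin in the study, 15 had a hepatokine gene as their nearest protein-coding gene within 100 kb. Fgf21 had 5 of these regions, Gdf15 4, Angptl4 5 and Angptl8 1. Regions were assigned to the genes by name and distance, and the genes were chosen with earlier results of these data known. Each of the 15 regions held a peak of at least 1 library, so its presence among the consensus regions depends on the calls.

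The assay was ATAC-seq, in which a transposase cuts and tags accessible DNA, on flash-frozen livers of C57BL/6 males aged 9 weeks after a fast of 24 h. Each genotype had 2 libraries: WT (wild type), Cpt2 L-/- (Cpt2 knockout, lost in liver), Ppara -/- (Ppara knockout) and Cpt2 L-/- ; Ppara -/- (double knockout, in which the loss of Ppara is described as whole-body). The labels name neither the driver of the liver deletion nor the exons removed, so peaks cannot check the deletions, and they do not say that replicates came from separate animals, so the spread between them may be technical. Wild type and Cpt2 knockout are called Ppara-intact, and Ppara knockout and double knockout Ppara-null.

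Ppara is a nuclear receptor that binds fatty acids and, paired with an RXR partner, activates genes for fatty acid use during fasting. Cpt2 completes the import of long-chain fatty acids into mitochondria for oxidation. Fgf21 is a fasting hormone that acts through FGF receptors with the co-receptor beta-Klotho, and Gdf15 is a stress hormone sensed in the brainstem through Gfral. Angptl4 blocks lipoprotein lipase, the enzyme that releases fatty acids from circulating triglyceride, and Angptl8 adjusts the activity of the same enzyme and is known for induction by feeding. Fgf21 and Angptl4 are classical Ppara target genes, and Gdf15 is a target of the integrated stress response.

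The sequence before the start of each gene is shown for the 3 members that the RefSeq promoter table holds (GRCm38.p6, the assembly of mm10), because regions overlapped the windows of Fgf21 and Angptl8 and missed that of Gdf15. Each run is the 250 bases before the gene start, 5′ to 3′ on the gene's strand, and capitals mark every match to the motifs searched.
Fgf21, chr7:45615491-45615740, minus strand: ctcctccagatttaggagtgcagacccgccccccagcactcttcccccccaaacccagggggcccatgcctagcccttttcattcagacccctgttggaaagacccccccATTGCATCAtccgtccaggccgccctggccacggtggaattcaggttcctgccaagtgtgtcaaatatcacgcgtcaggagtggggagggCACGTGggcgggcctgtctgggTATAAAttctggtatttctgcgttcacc
Angptl8, chr9:21835260-21835509, plus strand: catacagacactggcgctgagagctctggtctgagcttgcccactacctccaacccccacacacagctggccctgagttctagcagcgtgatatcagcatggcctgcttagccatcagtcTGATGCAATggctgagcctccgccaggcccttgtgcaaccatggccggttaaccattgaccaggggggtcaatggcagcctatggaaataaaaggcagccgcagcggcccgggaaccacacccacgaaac
Gdf15, chr8:70632457-70632706, minus strand: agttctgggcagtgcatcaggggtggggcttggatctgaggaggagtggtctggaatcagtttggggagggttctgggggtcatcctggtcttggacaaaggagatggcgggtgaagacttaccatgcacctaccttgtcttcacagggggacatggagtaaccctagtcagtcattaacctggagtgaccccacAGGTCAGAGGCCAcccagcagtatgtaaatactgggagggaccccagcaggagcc

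Both strands were searched for 7 motifs. The C/EBP-ATF response element TGATGNAAT, bound by the stress factor Atf4 with a C/EBP partner, matched the windows of Fgf21 (132 to 140 bases before the start, on the opposite strand) and Angptl8 (122 to 130 bases before it). It matched 0.816% of the 32851 promoter windows of the table. The Gdf15 window held a loose form of the direct repeat that Ppara and RXR recognize (AGGNCA, 1 base of any kind, AGGNCA), 43 to 55 bases before the start, with the shorter AGGTCA inside the same match. These 2 motifs matched 0.338% and 14.0% of all windows. Fgf21 further held an E-box, CACGTG (6.02% of windows), and TATAAA (12.4%). The strict repeat, with AGGTCA on both sides of the spacer base (0.0335%), and the cAMP response element TGACGTCA (1.55%) matched none of these windows. Upstream of an alternative Gdf15 start, at chr8:70632096-70632345, the only match was CACGTG. A match of letters is a description and not evidence that a factor was bound.

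Across the whole series, lists of Ppara-intact libraries held 28733 to 39296 peaks, and those of Ppara-null libraries 18132 to 22715. The peak caller MACS2 reports for each peak a fold, the pileup of tags at the summit over the local background with 1 added to each, and a −log10 p. The pileup and background were recovered from these, and the lowest background was 4.097 tags in all 8 libraries. The median pileup of a list was 56 to 66 tags where Ppara was intact and 42 to 45 tags where it was lost. The number in the peak names (441, 443, 446 and 4717 against 6831 to 6834) separates the same libraries as Ppara status does, so whatever it marks and Ppara status cannot be told apart. All 8 hepatocyte markers examined, among them Alb and Ttr, had regions called in both statuses. Their 79 regions gave 51 to 63 calls per Ppara-intact and 38 to 43 per Ppara-null library. The 5 markers of sinusoidal endothelium gave 12 to 26 and 5 to 7 calls over 37 regions, and the 5 of stellate cells 4 to 6 and 0 to 2 over 11. All 5 endothelial markers had a call in a Ppara-intact library, and 3 had a call in a Ppara-null one. The 5 Kupffer cell markers gave 0 to 2 calls and none over 3 regions, and Vsig4, Cd5l and Adgre1 had no region. The 4 cholangiocyte markers gave 2 to 4 and 0 to 2 calls over 4 regions, with none at Krt19 or Krt7, and the 5 lymphocyte and neutrophil markers 1 to 2 and 0 to 2 over 2. Whether the cell makeup of the tissue had a part in the results below was not tested, and in bulk tissue fewer cells with an open site and less opening per cell cannot be told apart.

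An overlap of at least 1 bp with a library's peak made a region called there. Wild type libraries called 11 and 10 of the 15 hepatokine regions, Cpt2 knockouts 14 and 12, Ppara knockouts 5 and 2, and double knockouts 6 and 3. The Ppara-intact and Ppara-null counts did not overlap, and Cpt2 knockout 1 had the most calls of the 8 libraries. Calls filled 78.3% of the positions (regions times libraries) in Ppara-intact and 26.7% in Ppara-null libraries, against 69.4% and 38.9% for all consensus regions. The hepatokine share was below that of all regions in each Ppara-null library (13.3% to 40.0% against 35.5% to 44.5%) and above it in 3 of the 4 Ppara-intact ones, the exception being wild type 2 with 66.7% against 71.8%.

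**Figure D1:**
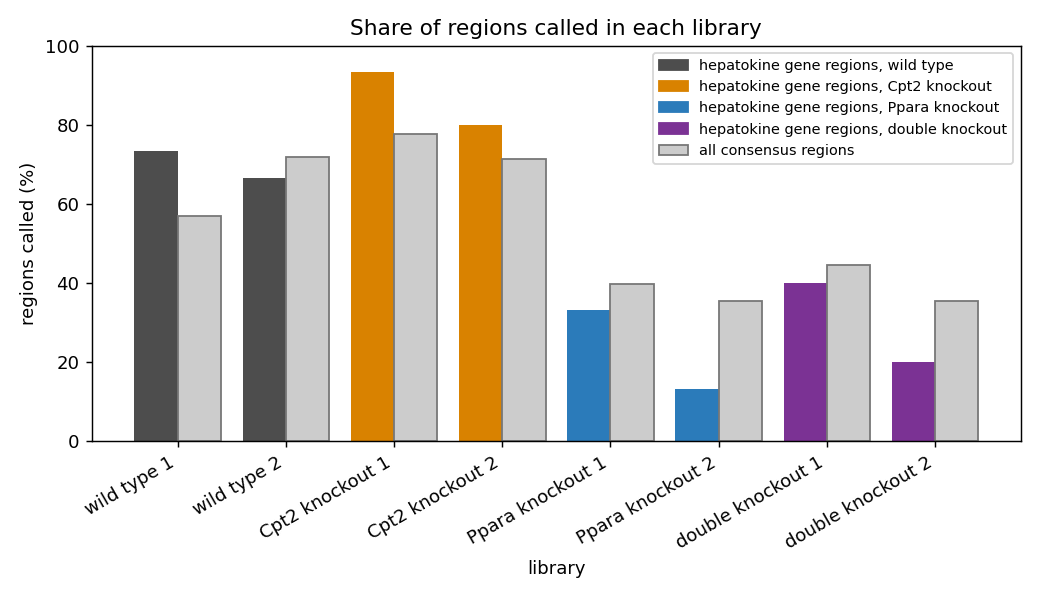
Share of regions called (y axis, %) in each library (x axis), for the 15 regions of the hepatokine genes (bars coloured by genotype) and all 49587 consensus regions (grey bars). The coloured bars run from 66.7% to 93.3% in the 4 Ppara-intact libraries and from 13.3% to 40.0% in the 4 Ppara-null libraries, and each bar is 1 library without error.

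Regions are numbered along each gene's chromosome. By Ppara status, 3 of the 15 separated the libraries, namely Fgf21 regions 2 and 5 and Gdf15 region 2, which the 4 Ppara-intact libraries all called and the 4 Ppara-null libraries did not. No hepatokine region showed the reverse. Over all consensus regions these classes made up 6.82% and 0.0686%. For each of the 3 regions Fisher's exact test gave p = 0.0286, the smallest possible with 4 libraries against 4, and a Benjamini-Hochberg adjusted p of 0.415 over the 49587 regions. No region of the genome passed 0.05 after adjustment, and 3418 were under 0.05 before it. When every list was shortened to its strongest 18132 peaks, the length of the shortest, none of the 15 regions separated the statuses, against 0.811% of all regions separated in favour of Ppara-intact libraries and 0.512% in favour of Ppara-null ones.

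**Figure D2:**
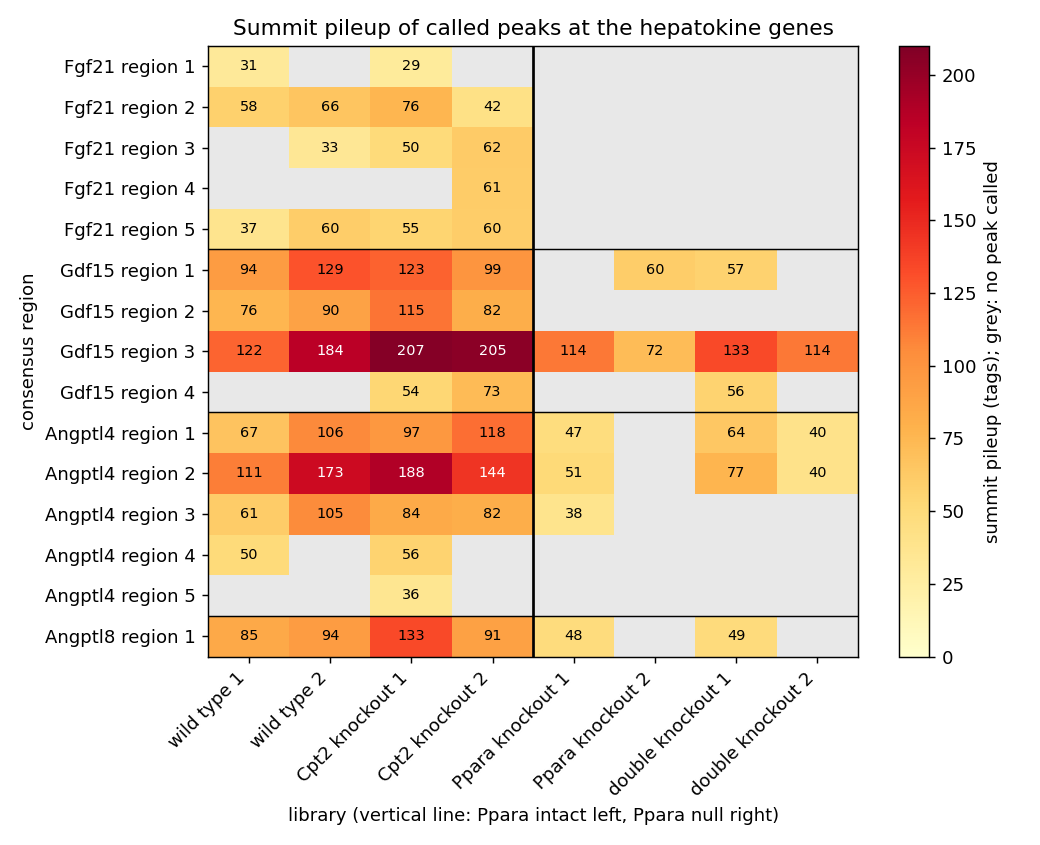
Summit pileup in tags (colour and printed number) of the peak called in each consensus region of the hepatokine genes (rows) in each library (columns), with grey where no peak was called and a vertical line between Ppara-intact and Ppara-null libraries. The 5 Fgf21 rows are grey throughout in the Ppara-null libraries, and Gdf15 region 3 is the only row with a value in all 8.

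At Fgf21 (Gene ID 56636, chr7:45613890-45615490, mm10), the fasting hormone of the set, no region was called in any of the 4 Ppara-null libraries, while wild type called 3 and 3 of the 5 regions and Cpt2 knockout 4 and 4. The share of all consensus regions without a Ppara-null call was not counted. Calls in exactly 1, 2 and 3 libraries, as at Fgf21 regions 4, 1 and 3, were found in 23.0%, 11.7% and 10.1% of all regions. Region 2 (chr7:45609566-45609922) lay 3968 bp beyond the gene's 3′ end, and region 5 (chr7:45616280-45616675) lay 790 bp upstream of its 5′ end. Both were called in all Ppara-intact libraries.

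In region 2 the summit pileup was 58 and 66 tags in wild type and 76 and 42 in Cpt2 knockout, with no peak in the other 4 libraries. The deposited fold was 8.89 and 8.75 in wild type and 9.32 and 4.12 in Cpt2 knockout, and the −log10 p was 38.2, 42.2, 49.98 and 14.85 in the same order. Cpt2 knockout 2 had the lowest pileup and the lowest fold, and the genotypes overlapped. The 4 summits lay within 15 bp of each other, at a median distance of 5757 bp from the gene's 5′ end.

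In region 5 the pileup was 37 and 60 tags in wild type and 55 and 60 in Cpt2 knockout. The fold was 6.55 and 8.57 in wild type and 8.36 and 4.85 in Cpt2 knockout, with −log10 p values of 20.9, 38.3, 34.95 and 23.8. Wild type and Cpt2 knockout again overlapped. The summits lay within 26 bp of each other, about 1003 bp upstream of the 5′ end. In the shortened lists region 2 was called in 3 Ppara-intact libraries and region 5 in wild type 2 alone. Shortening can only remove calls, so the absence of Ppara-null calls could not change.

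Region 4 (chr7:45615341-45615627) spanned the start of Fgf21 and covered 137 bases of the promoter window shown above. It was called in Cpt2 knockout 2 alone, with a pileup of 61 tags, a fold of 4.07 and a −log10 p of 20.1. Its summit lay 45 bp inside the gene, 70 bp from TATAAA and 181 bp from the C/EBP-ATF match. The local background of that peak was 14.2 tags, against 9.44 tags at region 2 in the same library. Region 3 (chr7:45610707-45611273) was called in wild type 2 and both Cpt2 knockouts, with pileups of 33, 50 and 62 tags. Its summits spread over 211 bp, because Cpt2 knockout 1 peaked apart from the other two. Region 1 (chr7:45603821-45604072) was called in wild type 1 and Cpt2 knockout 1, with pileups of 31 and 29 tags. These 3 regions had Fisher's exact p values by Ppara status of 1.0, 0.143 and 0.429, with adjusted p values of 1.0, 0.708 and 1.0.

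**Figure D3:**
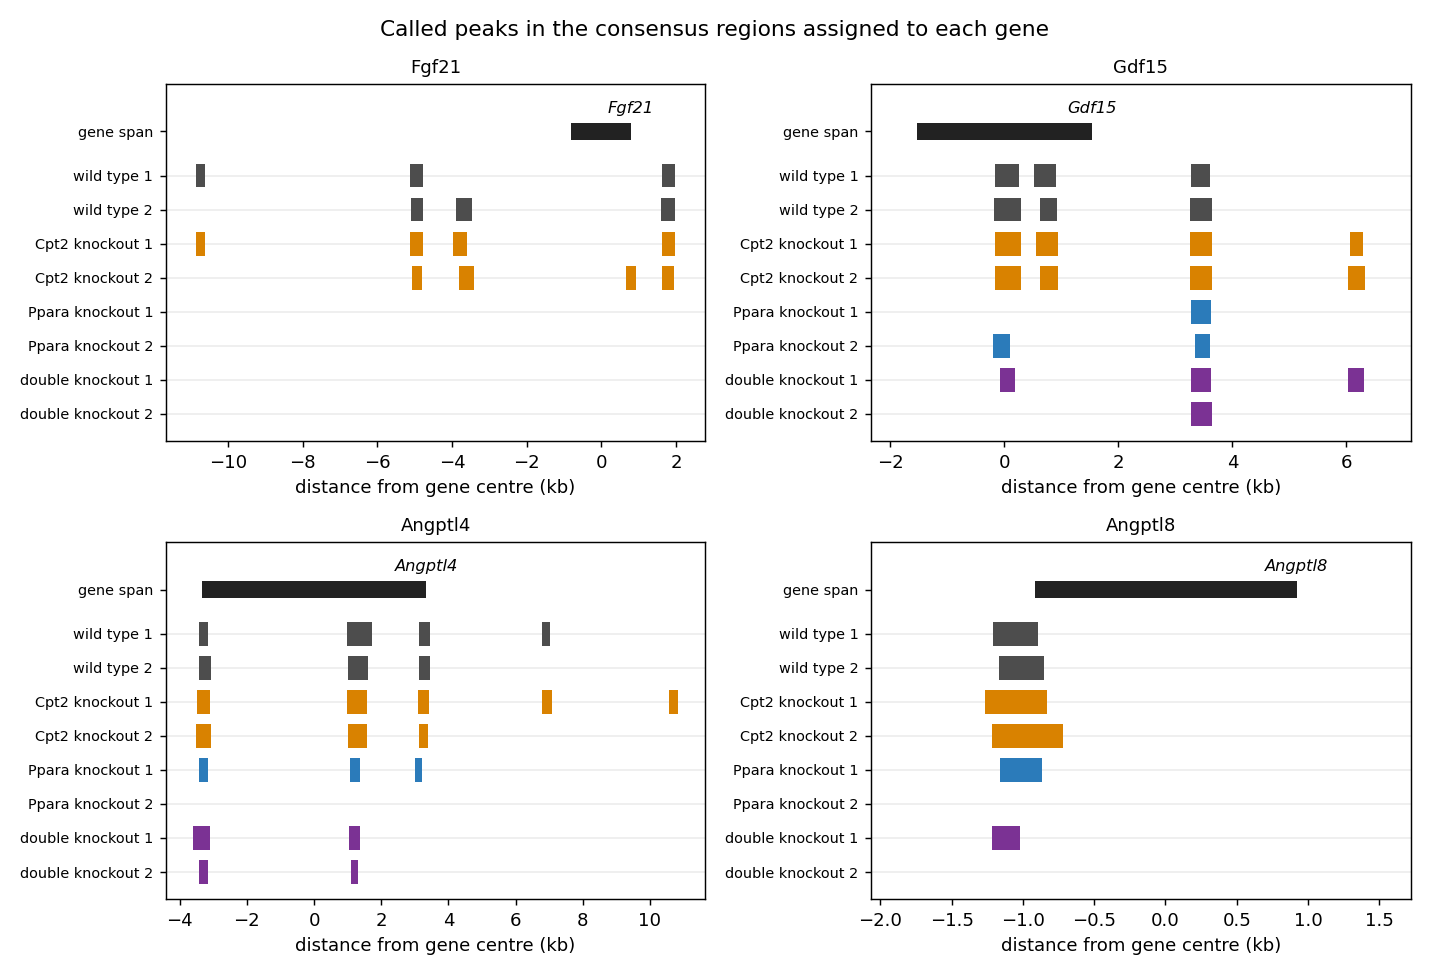
Called peaks (coloured bars, to scale) in each library (rows) around each hepatokine gene (black bar, gene span), against distance from the gene centre in kb along the chromosome. Fgf21 and Gdf15 are read from right to left and Angptl8 from left to right, so upstream regions of Fgf21 lie to the right of its bar, and its lower 4 rows hold no peak.

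At Gdf15 (Gene ID 23886, chr8:70629393-70632470), the stress hormone, the most constant region of the set stood beside one that was missing in all Ppara-null libraries. Region 3 (chr8:70634184-70634578), 1714 bp upstream, was the only hepatokine region called in all 8 libraries, which held for 22.7% of consensus regions. Its pileup was 122 and 184 tags in wild type, 207 and 205 in Cpt2 knockout, 114 and 72 in Ppara knockout, and 133 and 114 in double knockout. Both Cpt2 knockouts were above all other libraries in pileup, and the share of all regions with that order was not counted. Their local background was also the highest, at 26.1 and 28.5 tags. The pileups of the statuses overlapped, because double knockout 1 exceeded wild type 1. The fold was 5.48 and 7.71 in wild type, 7.67 and 6.98 in Cpt2 knockout, 5.88 and 4.39 in Ppara knockout and 6.45 and 6.63 in double knockout. The fold ranges of the statuses overlapped as well, and by fold wild type 2 was above both Cpt2 knockouts. The −log10 p was 50.5 and 98.6, 110 and 101.4, 50.6 and 25.2, and 63.1 and 55.97 in that order of genotypes. The 8 summits lay within 6 bp of each other, about 1910 bp upstream of the 5′ end, and the peaks ranked at percentile 66.9 to 92.4 of their lists by −log10 p.

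Gdf15 region 2 (chr8:70631457-70631878), inside the gene, had calls in the 4 Ppara-intact libraries alone. Its pileup was 76 and 90 tags in wild type and 115 and 82 in Cpt2 knockout. The fold was 3.58 and 3.77 in wild type and 4.45 and 2.85 in Cpt2 knockout, and the −log10 p was 20.9, 25.9, 39.0 and 16.3. In the shortened lists only Cpt2 knockout 1 called it. Region 1 (chr8:70630737-70631221), also inside the gene, had pileups of 94 and 129 tags in wild type and 123 and 99 in Cpt2 knockout. In Ppara knockout 2 and double knockout 1 the pileup was 60 and 57 tags, and the other Ppara-null libraries made no call (Fisher's exact p = 0.429, adjusted p = 1.0).

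Region 4 of Gdf15 (chr8:70636966-70637258), 4496 bp upstream, was called in both Cpt2 knockouts and double knockout 1 and in no other library. The share of all regions with that split was not counted, and 10.1% of all consensus regions had calls in exactly 3 libraries. The peaks of region 4 ranked at percentile 13.4 to 36.4 of their lists. Pileups were 54 and 73 tags in Cpt2 knockout and 56 in double knockout 1, with folds of 3.60, 4.14 and 3.95. It was the only hepatokine region called in both Cpt2 knockouts and in neither wild type library, a class that held 3.63% of all regions. In the shortened lists it was called in double knockout 1 alone. No Gdf15 region overlapped the promoter window shown above, and the nearest called summit, in region 2 of wild type 2, lay 797 bp from the direct repeat match.

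At Angptl4 (Gene ID 57875, chr17:33774900-33781575), the lipoprotein lipase inhibitor, 3 regions overlapped the gene. Each of them had calls in every Ppara-intact library and in at least 1 that lacked Ppara. Region 2 (chr17:33779226-33779953), inside the gene, had pileups of 111 and 173 tags in wild type and 188 and 144 in Cpt2 knockout. Ppara knockout 1 had 51 tags, double knockouts had 77 and 40, and Ppara knockout 2 made no call. Every called Ppara-null value was below every Ppara-intact value. The fold was 5.01 to 7.17 in the Ppara-intact libraries and 3.71, 4.82 and 3.56 where called in the Ppara-null ones. The peaks covered at least 78.2% of the region in each Ppara-intact library and 29.0% to 44.2% where called without Ppara.

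Region 1 of Angptl4 (chr17:33774626-33775164), at the lower-coordinate end of the gene, had pileups of 67, 106, 97 and 118 tags in the Ppara-intact libraries, wild type first. Ppara knockout 1 had 47 tags and the double knockouts 64 and 40. The folds overlapped, at 3.995 to 4.76 and 4.15 to 4.73, while the local background was 16.0 to 24.2 tags in Ppara-intact and 8.76 to 12.7 tags in Ppara-null peaks. In the shortened lists 2 Ppara-intact and 3 Ppara-null libraries called it, the opposite order. Region 3 (chr17:33781231-33781685), at the higher-coordinate end, had pileups of 61 and 105 tags in wild type, 84 and 82 in Cpt2 knockout, and 38 in Ppara knockout 1. The lone Ppara knockout summit lay on the lower-coordinate side of the others, and the 5 summits spread over 167 bp. Fisher's exact p by Ppara status was 1.0 for regions 1 and 2 and 0.143 for region 3 (adjusted p = 1.0 and 0.708).

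Regions 4 (chr17:33785031-33785322) and 5 (chr17:33788821-33789088) of Angptl4 lay 3456 and 7246 bp from the higher-coordinate end. Region 4 was called in wild type 1 and Cpt2 knockout 1 (50 and 56 tags), and region 5 in Cpt2 knockout 1 alone (36 tags). Ppara knockout 2 called no region of Angptl4, Angptl8 or Fgf21, and its 2 hepatokine calls were both at Gdf15.

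Angptl8 (Gene ID 624219, chr9:21835510-21837347), the feeding-induced lipase regulator, lies inside the span of Dock6, so its single region is equally near to both genes. The region (chr9:21835164-21835712) held the gene start and all 250 bases of the promoter window. Its pileup was 85 and 94 tags in wild type, 133 and 91 in Cpt2 knockout, 48 in Ppara knockout 1 and 49 in double knockout 1. The other Ppara-null libraries made no call, and the called values of the statuses did not overlap (Fisher's exact p = 0.429, adjusted p = 1.0). The fold was 4.12, 3.63, 5.50 and 4.31 in the Ppara-intact libraries and 3.37 and 3.15 in the Ppara-null ones. The summits lay within 33 bp of each other. Those of wild type 1, both Cpt2 knockouts and double knockout 1 lay at chr9:21835357 to 21835358. The C/EBP-ATF match printed above, at chr9:21835380-21835388, lay outside these positions. Wild type 2 peaked at 21835390, and Ppara knockout 1, the nearest, 1 bp from the centre of the match.

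**Figure D4:**
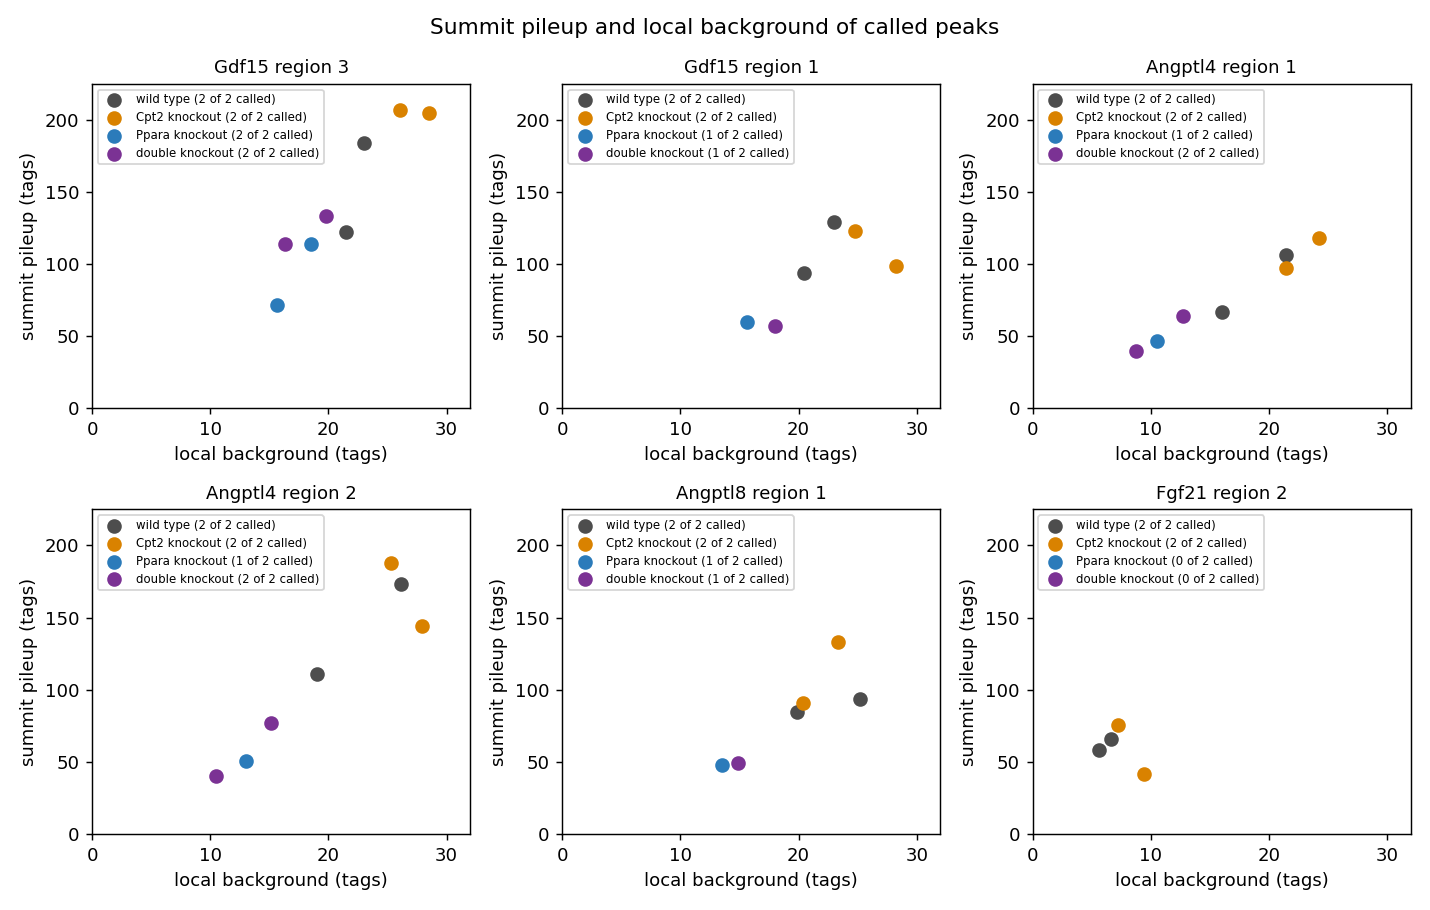
Summit pileup (y axis, tags) against local background (x axis, tags) of the called peaks in 6 hepatokine regions, 1 point per library coloured by genotype. In Gdf15 region 1, Angptl4 regions 1 and 2 and Angptl8 region 1 the Ppara-null points lie below and to the left of all Ppara-intact points, in Gdf15 region 3 the pileups overlap, and Fgf21 region 2 has Ppara-intact points only.

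The 4 Ppara-intact libraries and at least 1 Ppara-null library shared a call in 6 of the 15 regions. In 5 of them every called Ppara-intact pileup exceeded every called Ppara-null one, the exception being Gdf15 region 3. The same held for 75.8% of the 20498 such consensus regions. The local background was likewise higher in Ppara-intact libraries in 6 of the 6, against 65.7% of all such regions. Both patterns were common across the genome, so nothing is read from them for the hepatokine genes.

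Genotypes were then compared in pairs, in which 2 libraries against 2 allow no share of splits below 0.333 and no test was made. Comparisons against the same genotype share its libraries. In Cpt2 knockout against wild type, 1 of 15 regions (Gdf15 region 4) was called in both Cpt2 knockouts and neither wild type, and none the reverse, against 3.63% and 0.512% of all regions. In Ppara knockout against wild type, none was called only in Ppara knockout (0.46% of all regions) and 3 only in wild type (13.6%), namely Fgf21 regions 2 and 5 and Gdf15 region 2. Set against wild type, double knockout had no region of its own (1.2% of all regions) and lacked 4 (12.9%), Angptl4 region 3 beside those named. Set against Cpt2 knockout, it had none of its own (0.597%) and lacked 5 (20.4%), which were Fgf21 regions 2, 3 and 5, Gdf15 region 2 and Angptl4 region 3. Between double knockout and Ppara knockout no hepatokine region separated in either direction, where 2.33% and 1.45% of all regions did.

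By Cpt2 status over all 8 libraries no hepatokine region separated, against 0.0968% of regions called only without Cpt2 and 0.00605% only with it. Leaving out double knockout 2 brought the count to 1, Gdf15 region 4, and the count over all regions in either direction from 51 to 139. The choice of threshold decided which regions separated by Ppara status. At a −log10 q of at least 20 they were Gdf15 region 1 and Angptl8 region 1 (2 of 15, against 9.0% of all regions). When peaks had to cover at least 50% of a region, Angptl4 regions 2 and 3 joined Fgf21 regions 2 and 5 and Gdf15 region 2 (5 of 15, against 8.71%).

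The hepatokine genes were set beside 5 lists of related genes. No region in any list passed the adjusted test. Over all consensus regions, 6.82% separated in favour of Ppara-intact libraries and 0.0686% in favour of Ppara-null ones. In the list of the other Angptl genes and lipoprotein lipase partners, 9 of 42 regions separated in favour of Ppara-intact libraries and 0 in favour of Ppara-null ones. Calls filled 75.6% of Ppara-intact and 25.6% of Ppara-null positions. Lipc, the hepatic lipase, had 3 such regions of 16, and Lipg, endothelial lipase, 3 of 8. Angptl1 had 1 such region of 2, with no call in any Ppara-null library, and Furin 1 of 4. Angptl6 and Angptl7 had no region, and Angptl2 had 2 regions, neither separated. For the Fgf21 receptors and regulators, calls filled 78.6% and 40.5% of the positions. Of their 153 regions, 22 separated in favour of Ppara-intact libraries and 0 the other way. They included 7 of 25 at Ppara itself. Ppara is the gene targeted in the Ppara-null libraries, so the deletion and a loss of accessibility cannot be told apart there. The others included 5 of 40 at Rora, a nuclear receptor of the clock, and 2 of 13 at Fgf1. Klb, which encodes beta-Klotho, had 1 of 6, and Creb3l3, a hepatic factor that acts with Ppara, 1 of 3.

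In the list of the Gdf15 receptor and stress regulators, 0 of 25 regions separated in either direction, and calls filled 77.0% and 52.0% of the positions. Gfral and Atf4 had no region. Of 99 regions at 20 other hepatokines, 8 (8.08%) separated in favour of Ppara-intact libraries, near the 6.82% of all regions. Fgl1, Tsku and Igfbp2 ranked highest among their genes. The 1 region that separated the other way lay 704 bp from Hamp, which encodes the iron hormone hepcidin (chr7:30941187-30941664, folds of 3.18 to 4.36). Calls filled 74.2% and 45.7% of the positions of this list. Among 16 Ppara target genes, 18 of 103 regions separated in favour of Ppara-intact libraries, led by Acsl1, Acot1 and Pdk4, and calls filled 72.1% and 27.9% of the positions. The median difference in calls between the 4 Ppara-intact and 4 Ppara-null libraries was 2 for the hepatokine regions, 2 for the Angptl and Ppara target lists, and 1 for the other 3 lists and for all consensus regions.

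**Figure D5:**
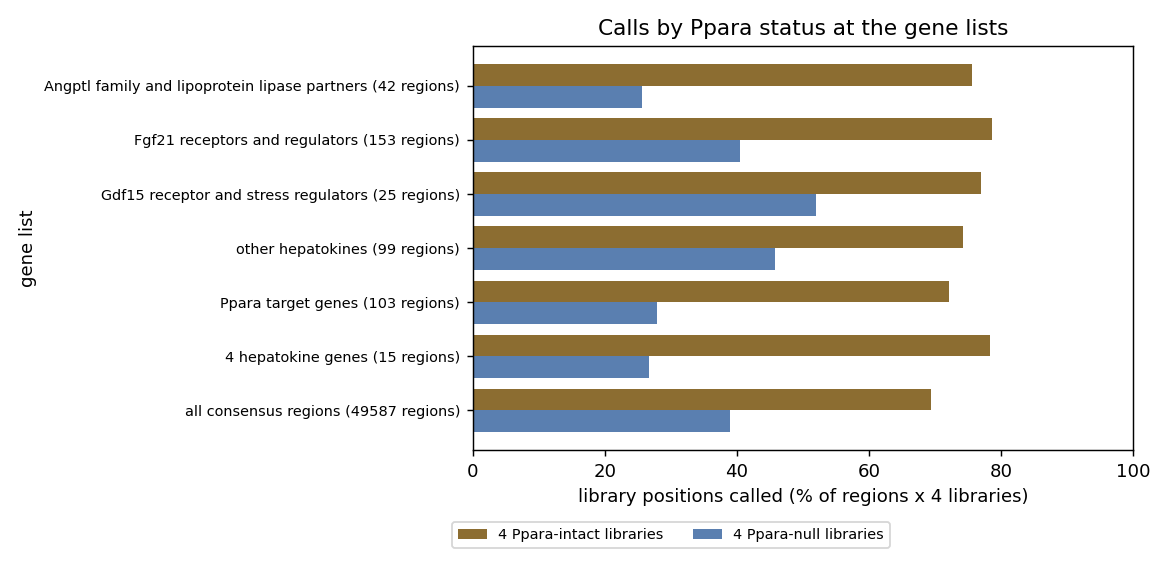
Share of library positions called (x axis, % of regions times 4 libraries) in Ppara-intact and Ppara-null libraries for each gene list and for all consensus regions (y axis, with the number of regions). The 4 hepatokine genes sit at 78.3% and 26.7%, beside 69.4% and 38.9% for all regions, and the list of the Gdf15 receptor and stress regulators has the highest Ppara-null share of the lists, 52.0%.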

How the data were processed

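Peaks were deposited per library in narrowPeak format on mm10, per the peak names. The submitters' processing notes name BWA and MACS2 2.1.0. Other settings are not given in the sources used here. For nearly all peaks the deposited score is 10 times the −log10 p-value, rounded down. The deposited fold is a ratio of summit pileup to local background with 1 tag added to each, and the −log10 p and −log10 q values are those of the peak caller. The authors' consensus table gives positions only, so calls were compared and no count model was fitted. Peak values describe peaks within their own list.

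Consensus regions were assigned to the nearest of 21900 protein-coding genes (RefSeq, GRCm38.p6) by distance to the gene span, up to 100 kb, keeping ties. In a region with several peaks the strongest was used. Calls were tested by Ppara status with two-sided Fisher's exact tests, adjusted over all consensus regions. Whole-number pileup and background were solved from fold and −log10 p, for 99.64% to 99.99% of peaks per library, and were added after the files were read. Read totals are unknown. Python 3.11.15, NumPy 2.4.6, SciPy 1.17.1, pandas 2.3.3 and matplotlib 3.10.9 were used.

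Members and lists were chosen with earlier results of these data known. The text names every member region and, from each list, genes with a region separated by Ppara status, up to 3 per list and direction by mean percentile of −log10 p, and the 3 genes most like each member. One gene that the rule names is not reported here. Klb, Creb3l3, Angptl1, Angptl2, Angptl6, Angptl7, Furin, Gfral and Atf4 were named outside that rule. Alternatives were equal-number lists, a −log10 q of at least 20, a cover of 50%, a limit of 20 kb, no ties, a replicate block and leaving out each library.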

Additional observations from a re-analysis of the deposited data

How the results depend on the processing

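Of 71 alternative values of the 7 counts of separated hepatokine regions, 53 stayed within 1.5 times. Each count adds up both directions. Lists shortened to equal length gave 0 regions by Ppara status. Set against wild type, Cpt2 knockout then gave 0, Ppara knockout 1 and double knockout 2, and double knockout against Cpt2 knockout gave 0. These lists hold fewer peaks by construction. A cover of 50% gave 5 regions by Ppara status and 5 for Ppara knockout against wild type, and the cause was not tested. Leaving out 1 library gave 3 to 4 regions by Ppara status (3625 to 5917 over all consensus regions, against 3418) and 0 to 1 by Cpt2 status (1 without double knockout 2; 71 to 151 over all, against 51). It gave 1 to 2 for Cpt2 knockout against wild type (2 without wild type 2 or either Cpt2 knockout; 5142 to 7216 over all, against 2052). For Ppara knockout against wild type it gave 4 to 7 (5 without wild type 2, 7 without Ppara knockout 1; 9429 to 15106 over all, against 6968). Double knockout gave 5 to 6 against wild type (9421 to 15414 over all, against 7014), 1 of the 5 without double knockout 2 being called only in double knockout. Against Cpt2 knockout it gave 5 to 8 (8 without Cpt2 knockout 2 or double knockout 1; 12750 to 17625 over all, against 10402). Against Ppara knockout it gave 0 to 2 (4575 to 5481 over all, against 1878), and the side changed with the library: 2 called only in double knockout without Ppara knockout 1, 1 likewise without double knockout 2, and 1 only in Ppara knockout without Ppara knockout 2. Fewer libraries then have to be separated, for hepatokine regions as for all others. Leaving out the region shared with Dock6, or a limit of 20 kb, changed none of the 7 counts.

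By Fisher's exact test with Benjamini-Hochberg adjustment, 0 regions passed under each of these settings, with 656 to 5917 under 0.05 unadjusted. With the replicate number as a block, an exact permutation test over 36 orders gave 0 regions past 0.05, adjusted or not, since its smallest p is 0.0556. Same-numbered libraries shared only a number, with correlations of their deviations from -0.0314 to 0.0255. A region without a call lies under the authors' threshold, which is not evidence that it was closed.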

Other observations

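Genes most like each hepatokine were ranked by the share of their region bases that peaks covered in each of the 8 libraries, among genes with the same number of regions or 1 more or fewer. For Fgf21, covered at 49.4% and 61.4% in wild type, 71.5% and 68.5% in Cpt2 knockout and 0.0% in all Ppara-null libraries, these were Cpne5, Pear1 and Acot1 of 2592 genes compared, with mean absolute differences of 1.36, 3.13 and 3.19 percentage points against a median of 22.0. For Gdf15 they were Max, Fzd4 and Prrg2 (4.97, 5.52 and 5.84 points), for Angptl4 Ido2, Gpatch1 and Arpc3 (4.59, 5.49 and 5.78 points), and for Angptl8 Commd5, Ube2a and Kif20b (5.56, 6.03 and 6.33 points). Acot1, a peroxisome proliferator-induced thioesterase, is the one of these 12 genes that was also in the list of Ppara targets.

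Other genes' regions within 20 kb of the hepatokine genes numbered 16. Around Fgf21, none of 4 separated the libraries by Ppara status, the region of Bcat2 had calls in 2 Ppara-null libraries, 1 of the 2 at Rasip1 in 3, and the other at Rasip1 and that of Izumo1 in none. The region of Rab11b, 14085 bp from Angptl4, was called in all 8. Of 6 regions around Gdf15, 1 of Pgpep1, 15518 bp away, was called in all 8. The others, at Ssbp4 and Pgpep1, had no call in a Ppara-null library, and none was called in all Ppara-intact ones. Of 5 regions of Dock6 around Angptl8, 1 was called in all 8 libraries (chr9:21822621-21823185), and 1, 3293 bp from Angptl8 at chr9:21831684-21832217, in the Ppara-intact libraries alone. Those at chr9:21830416-21830751 and chr9:21852392-21852969 were called in 3 Ppara-intact libraries and no Ppara-null one. That at chr9:21830887-21831347 was called in 4 Ppara-intact and 3 Ppara-null libraries.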
